A study of Homo sapiens with 12 samples.

Results

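The genes described here are 8 coding genes of the EGFR and MAP kinase pathway and 2 noncoding features annotated on the strand opposite them, 10 of the 60675 gene rows in the files. They were chosen by name: DUSP6 and PHLDA1, the features opposite their exons (ENSG00000274021 and PHLDA1-AS1), and AREG, EREG, HBEGF, DUSP4, SPRY4 and SPRED1. Each of these last 6 was also to be read at a feature that overlaps its exons by at least 30 bases on the other strand, but none of the 6 has one. Of the 10 rows, 9 held enough reads to be tested, and SPRED1 did not.

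RNA was sequenced from 1 established line, HSC-3, derived from a human squamous carcinoma of the mouth. Untreated cells were compared with cells stimulated by cyclopiazonic acid (CPA, 25 µM, 3 hours) and with cells that had the same CPA stimulus plus synta-66, with 4 libraries in each of the 3 groups. CPA inhibits the pump that loads the endoplasmic reticulum with calcium, and the emptied stores open ORAI channels in the plasma membrane, which synta-66 blocks. The labels state no dose of synta-66, and synta-66 without CPA was not analysed here. Separate cultures for the replicates are not stated either, so every p-value rests on the spread between these samples alone, and that spread may be technical.

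EGFR is a receptor tyrosine kinase of epithelial cells. Its ligands, among them amphiregulin, epiregulin and heparin-binding EGF, are made as membrane precursors and released by metalloproteases. The active receptor drives RAS, RAF, MEK and ERK, and ERK output raises its own inhibitors: the dual-specificity phosphatases that take phosphate off MAP kinases, the Sprouty and Spred proteins that act near RAS and RAF, and PHLDA1. Some squamous carcinomas depend on this receptor.

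Gene reads numbered 2819486 to 5458858 per library, out of 52.5 M to 108 M unique alignments. The upper figure is above the highest number of trimmed reads that the labels give for a sample, and whether mates of a pair were counted apart was not tested. The share of gene reads from mitochondrial rRNA was 39.6% in untreated replicate 3, 53.5% in CPA with synta-66 replicate 1 and 49.4% in CPA with synta-66 replicate 4, against 0.165% to 11.8% in the other libraries. These 3 libraries also had the most non-unique alignments per gene read, and each leading result is therefore given with and without them. Without them only replicates 2 and 3 remain in the group with both agents. As a check of the cell type, KRT8 had a mean of 7740 CPM (counts per megaread, that is, divided by library size after TMM scaling), and the 13 epithelial markers summed to between 7060 and 8730 CPM per library. Nearly all of that sum was KRT8: 7 of the 13 reached a mean of 5 CPM, and the own locus of CDH1, the gene of E-cadherin, had 1.41 CPM, beside 159 CPM at the feature opposite it. KRT8 and KRT18 overlap on opposite strands, so these reads cannot be split between the 2 keratins. Of 8 fibroblast markers none reached a mean of 5 CPM, and COL3A1, DCN, LUM and PDGFRB had no read in any library. Their sum lay between 0.293 and 1.46 CPM in untreated, 0.205 and 1.29 in CPA and 0.225 and 0.87 in CPA with synta-66 libraries. Of 10 immune and endothelial markers only CSF1R reached 5 CPM (mean 10.6), and CD3E and KDR were among those with no read. Own loci were low for epithelial genes too. Only 2 of the fibroblast markers and 1 of the others have a feature opposite the exons of that gene alone. The low values of the fibroblast, immune and endothelial markers are therefore a weak check of the cell type. In bulk RNA, fewer cells with a transcript and less transcript per cell cannot be told apart.

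At the DUSP6 and PHLDA1 loci most of the counted reads lay at the feature on the strand opposite the gene. DUSP6, which encodes an ERK phosphatase of the cytoplasm, lies at chr12:89347235-89352501 on the minus strand (GRCh38), and ENSG00000274021 at chr12:89351015-89353271 on the plus strand. The feature overlaps 1105 bases of DUSP6 exon, 436 of them coding, and also covers the 250 bases upstream of the DUSP6 start. Over all libraries ENSG00000274021 held 33273 reads and the own locus of DUSP6 439. PHLDA1, a protein with a pleckstrin homology-like domain and a long glutamine tract, lies at chr12:76025447-76031776 on the minus strand. PHLDA1-AS1 lies inside it at chr12:76030494-76031378 on the plus strand, with 553 bases opposite PHLDA1 exons, 524 of them coding. PHLDA1-AS1 held 54672 reads and PHLDA1 2265. Reads of a feature's own transcript cannot be told apart from reads of the gene opposite it, so each of the 4 rows is reported under its own name.

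Sequence was taken from hg38 to show which part of each gene the features lie over. The first line gives 240 bases of the DUSP6 coding strand under ENSG00000274021 (chr12:89351800-89352039, minus strand), with the start codon in capitals. The second gives 240 bases of the PHLDA1 coding strand under PHLDA1-AS1 (chr12:76031139-76031378, minus strand), with the opening of the run of glutamine codons in capitals.
DUSP6 coding strand: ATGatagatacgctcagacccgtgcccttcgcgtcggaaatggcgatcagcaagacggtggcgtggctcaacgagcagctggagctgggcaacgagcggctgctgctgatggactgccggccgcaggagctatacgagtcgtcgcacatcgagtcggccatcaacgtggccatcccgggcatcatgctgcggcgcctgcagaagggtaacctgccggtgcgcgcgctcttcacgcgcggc
PHLDA1 coding strand: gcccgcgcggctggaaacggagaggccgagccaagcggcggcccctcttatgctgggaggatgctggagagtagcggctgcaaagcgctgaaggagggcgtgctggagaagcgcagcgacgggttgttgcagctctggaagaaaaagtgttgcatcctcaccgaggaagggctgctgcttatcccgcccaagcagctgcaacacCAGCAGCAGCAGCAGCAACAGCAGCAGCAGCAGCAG
The features thus lie opposite the beginning of the DUSP6 protein and the start of the glutamine tract of PHLDA1.

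Per kilobase of exon, as annotated in GENCODE 44, the levels in untreated cells ran from 1570 CPM for PHLDA1-AS1 and 390 for ENSG00000274021 down to 8.85 for PHLDA1, 3.09 for EREG, 2.79 for AREG and 2.35 for DUSP6. SPRY4 (1.01), HBEGF (0.737), DUSP4 (0.524) and SPRED1 (0.0134) were lower still. EREG, AREG and DUSP6 do not differ beyond their spread in this order, and neither do SPRY4, HBEGF and DUSP4. With CPA and synta-66 AREG stood at 11.7 CPM per kilobase, which does not differ beyond its spread from 10.1 for PHLDA1. A low own count may not show a gene's expression, since DUSP6 and PHLDA1 had far fewer reads of their own than the features opposite them.

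The feature opposite DUSP6 was lower in every CPA library than in every library of the other groups. ENSG00000274021 had 779, 904, 984 and 853 CPM in the untreated libraries. It had 359, 358, 421 and 382 CPM with CPA. With CPA and synta-66 it had 853, 911, 902 and 1030 CPM. The CPA libraries stand apart from both other groups without overlap, and these 2 groups overlap each other.

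ENSG00000274021 thus fell 2.31-fold with CPA (log2 fold change -1.21 ± 0.08, SE; adjusted p = 3.47e-15) by the quasi-likelihood test of edgeR, with p-values adjusted over 14911 rows by the method of Benjamini and Hochberg. Rows are called here when that p is below 0.05 and the fold reaches 1.5. It rose 2.43-fold when synta-66 was added (1.28 ± 0.08, adjusted p = 5.02e-16 in the same test). Without the 3 libraries rich in mitochondrial RNA these log2 fold changes were -1.15 and 1.22. Between CPA with synta-66 and untreated cells the log2 difference was 0.07, with a 95% interval from -0.09 to 0.23, which leaves room for a change of either sign within that range.

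The own locus of DUSP6 had far fewer reads, between 19 and 53 per library. It had 10.8, 10.4, 5.94 and 9.08 CPM in untreated cells, 5.68, 7.91, 9.82 and 5.83 with CPA, and 11.4, 11.9, 11.5 and 11.3 with both agents. The group with both agents lay above every library of the other groups, while untreated and CPA libraries overlapped. None of the 3 comparisons passed the edgeR test (adjusted p = 0.707, 0.218 and 0.689). The log2 interval for CPA against untreated, from -0.92 to 0.29, does not reach the fall of 1.21 at the opposite feature. The number of reads at ENSG00000274021 for each read at DUSP6 was 99.3 in untreated, 53.3 in CPA and 80 in CPA with synta-66 libraries (geometric means, n = 4).

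**Figure D1:**
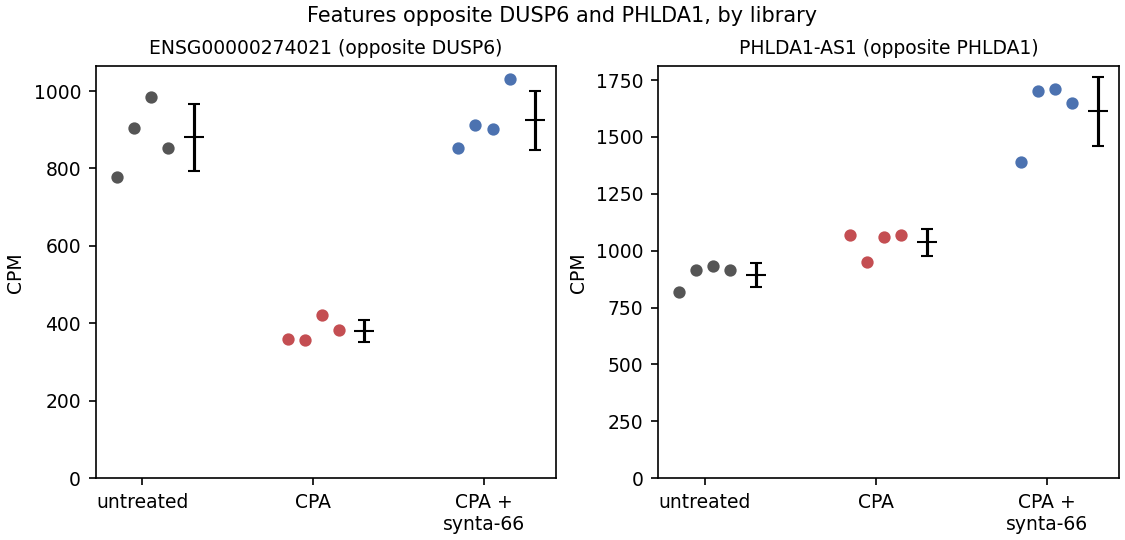
CPM (linear axis from 0) at ENSG00000274021, opposite DUSP6, and PHLDA1-AS1, opposite PHLDA1, in each of the 12 libraries; points are libraries, bars the mean and SD of 4. At ENSG00000274021 the CPA libraries lie between 358 and 421 CPM and all others at 779 or above, while at PHLDA1-AS1 the libraries with both agents stand highest, from 1390 to 1710 CPM.

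The feature opposite PHLDA1 moved in another pattern, with its main step at the addition of synta-66. PHLDA1-AS1 had 817, 913, 934 and 915 CPM in untreated cells. With CPA it had 1070, 949, 1060 and 1070 CPM. With CPA and synta-66 it had 1390, 1700, 1710 and 1650 CPM. The 3 groups do not overlap and stand in the order untreated, CPA, CPA with synta-66.

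The step from untreated to CPA did not pass (log2 fold change 0.21 ± 0.07, SE; adjusted p = 0.0847 in the edgeR test). DESeq2 gave adjusted p = 0.0292 for the same step, with a change of 0.217 that is below the fold minimum. PHLDA1-AS1 rose 1.55-fold with synta-66 over CPA alone (0.64 ± 0.07, adjusted p = 1.45e-08). This is close to the 1.5-fold minimum, and a test against that minimum itself did not call it (adjusted p = 0.773). Against untreated cells the rise was 1.8-fold (0.85 ± 0.07, adjusted p = 6.29e-12). Without the 3 libraries named above the last 2 log2 fold changes were 0.68 and 0.92.

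On its own strand PHLDA1 was lowest with CPA. It had 52.7, 49.4, 43.8 and 63.6 CPM in untreated cells, 34.1, 28.4, 29.3 and 50.5 with CPA, and 55.2, 55.9, 57 and 70.1 with both agents. CPA replicate 4, at 50.5 CPM, lay within the untreated range, and the other 3 CPA libraries lay below it. PHLDA1 rose 1.67-fold with synta-66 over CPA alone (0.74 ± 0.16, adjusted p = 0.00137), although not in the test against the 1.5-fold minimum (adjusted p = 0.668).

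For CPA against untreated cells PHLDA1 had a log2 fold change of -0.56 ± 0.16 (SE), with adjusted p = 0.028 in the edgeR test but a change just under the fold minimum. It passed that minimum without CPA replicate 4 (-0.774, adjusted p = 0.00121), untreated replicate 2 (-0.587, 0.0427) or untreated replicate 3 (-0.629, 0.0181). It also passed without the 3 libraries rich in mitochondrial RNA (-0.624, adjusted p = 0.0168). With both agents the difference from untreated cells was 0.18, with a 95% interval from -0.13 to 0.49.

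PHLDA1 and PHLDA1-AS1 therefore differed in sign for CPA against untreated cells, with neither called. The number of reads at PHLDA1-AS1 for each read at PHLDA1 was 15.5, 18.5, 21.3 and 14.4 in untreated libraries and 31.3, 33.5, 36.2 and 21.3 with CPA. With CPA and synta-66 it was 25.3, 30.4, 29.9 and 23.5. The lowest CPA library, replicate 4, equalled the highest untreated one at this precision, and the libraries with both agents all lay above the untreated ones.

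Ratios within a library do not depend on how libraries are scaled, and 4 of them were compared between groups after the values had been seen. With 4 libraries against 4, a two-sided exact permutation test cannot go below p = 0.0286, and over the 12 tests the smallest adjusted value was 0.0572, so no ratio passed after adjustment. PHLDA1-AS1 to PHLDA1 had p = 0.0571 for CPA against untreated and p = 0.0286 for CPA with synta-66 against untreated in the exact test (adjusted 0.0761 and 0.0572). ENSG00000274021 to DUSP6 had p = 0.0286 for CPA against untreated and for the addition of synta-66 in the exact test (adjusted 0.0572 for both).

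The ratio that set the 2 abundant features apart was that of PHLDA1-AS1 to ENSG00000274021. It was 1.05, 1.01, 0.949 and 1.07 in untreated libraries, 2.96, 2.65, 2.52 and 2.81 with CPA, and 1.63, 1.87, 1.89 and 1.59 with both agents. The 3 groups did not overlap (exact permutation p = 0.0286 in each comparison, adjusted 0.0572). For CPA against untreated this had to be so, because each feature alone already parted these groups, in opposite directions. The p-value of that comparison is therefore no separate result. In untreated cells the 2 features thus had about equal reads, and with CPA the feature opposite PHLDA1 had 2.73 for each read at the one opposite DUSP6.

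**Figure D2:**
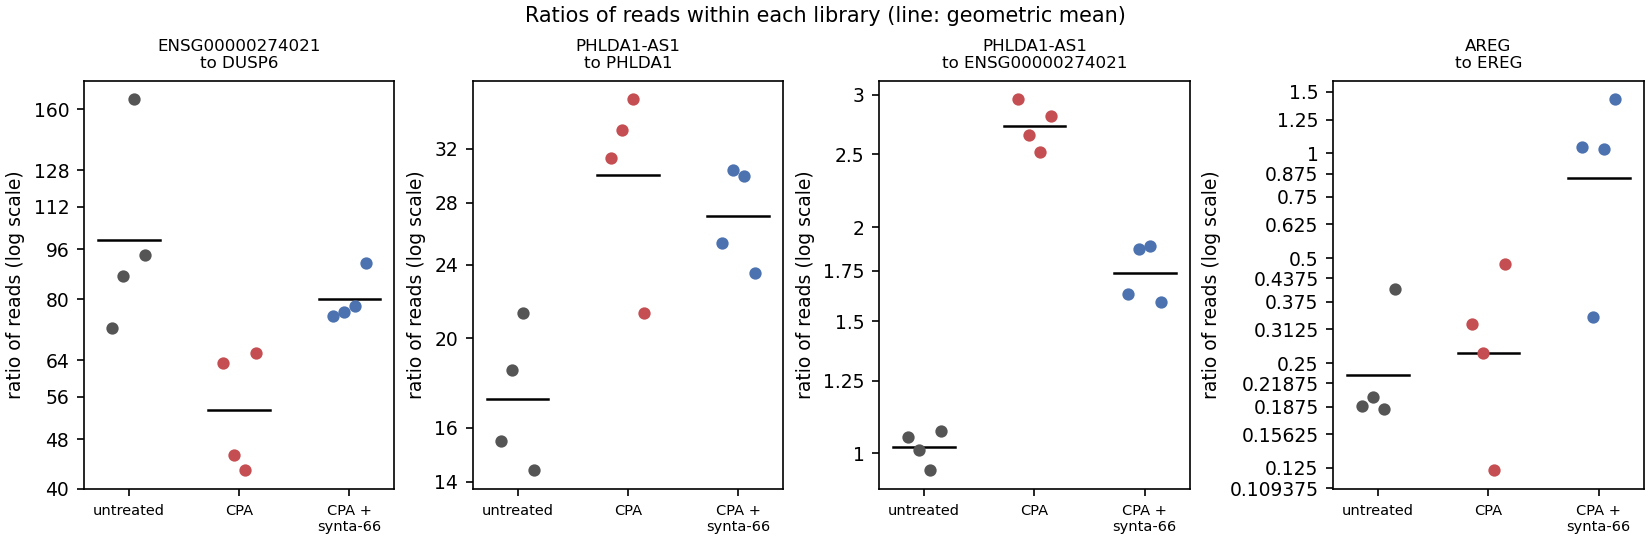
Ratios of reads within each library on a log axis for 4 pairs of rows; points are the 12 libraries and lines the geometric means of 4. For PHLDA1-AS1 to ENSG00000274021 the untreated libraries lie between 0.949 and 1.07 and the CPA libraries between 2.52 and 2.96.

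Among the ligands AREG changed most clearly, and only its own locus could be read (chr4:74445136-74455005, plus strand). GENCODE 44 places no feature opposite its exons, so reads on that strand may have gone uncounted. Gene rows that GENCODE 44 lacks could not be placed. The changes given here describe its own reads alone, and what share of its transcript they hold was not tested. Amphiregulin is a low-affinity EGFR ligand made by keratinocytes and many carcinomas. AREG had 2.71, 3.4, 3.13 and 9.08 CPM in untreated cells, from 10 to 31 reads. With CPA it had 5.94, 3.49, 1.64 and 5.4 CPM, from 8 to 25 reads. With CPA and synta-66 it had 19.5, 9.91, 22.4 and 24.8 CPM, from 44 to 91 reads.

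Every library with synta-66 lay above every other library, the nearest being untreated replicate 4 at 9.08 CPM. AREG rose 4.63-fold with synta-66 over CPA alone (log2 fold change 2.21 ± 0.38, SE; adjusted p = 6.25e-05) and 4.21-fold over untreated cells (2.07 ± 0.38, adjusted p = 0.000231, edgeR). CPA alone against untreated gave -0.14 ± 0.41 (adjusted p = 0.932), with a 95% interval from -0.96 to 0.69. Without the 3 libraries rich in mitochondrial RNA both rises were still called, at 1.94 (adjusted p = 0.00335) and 1.68 (adjusted p = 0.0419). That fit keeps only replicates 2 and 3 with both agents, at 9.91 and 22.4 CPM.

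The 250 bases upstream of the AREG start were searched, with those of the other members in the RefSeq table (GRCh38.p14), for 5 motifs on both strands. These were an ETS motif (CCGGAAG), AP-1 (TGANTCA), the cyclic AMP response element CRE (TGACGTCA), the NFAT core (GGAAA) and the CArG box, and the letters GGAA are common to the NFAT core and the ETS motif. AREG held 1 CRE, whose near end was 58 bases from the start, and 1.65% of 35114 upstream windows hold that motif. DUSP6 held 2 NFAT cores and EREG 2, PHLDA1 1, a motif present in 55.7% of windows. No other match was found among DUSP6, PHLDA1, AREG, EREG, HBEGF, SPRY4 and SPRED1, which says only that these letters are not in these windows. ETS, AP-1 and CArG motifs were in 8.52%, 6.57% and 1.16% of all windows. The window of AREG is shown because AREG was called, and that of DUSP6 because it lies inside ENSG00000274021; capitals mark the matches.
AREG upstream, chr4:74444886-74445135, plus strand: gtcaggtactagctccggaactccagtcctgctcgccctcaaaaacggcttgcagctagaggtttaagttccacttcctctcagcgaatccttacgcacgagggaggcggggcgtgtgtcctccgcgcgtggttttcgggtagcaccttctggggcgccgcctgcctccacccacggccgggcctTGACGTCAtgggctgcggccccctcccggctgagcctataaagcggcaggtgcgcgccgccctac
DUSP6 upstream, chr12:89352502-89352751, minus strand: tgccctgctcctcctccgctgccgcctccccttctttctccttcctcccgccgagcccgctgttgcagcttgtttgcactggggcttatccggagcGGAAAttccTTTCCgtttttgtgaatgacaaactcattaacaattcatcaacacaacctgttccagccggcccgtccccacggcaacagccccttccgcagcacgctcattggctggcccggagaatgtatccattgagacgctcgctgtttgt
A match of letters is a description and not a bound site.

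EREG encodes epiregulin and lies beside AREG on chromosome 4 (chr4:74365145-74388749, plus strand). It had 14.4, 17, 16.9 and 22.3 CPM in untreated cells, 18.3, 13, 13.3 and 11.2 with CPA, and 18.7, 29.3, 21.6 and 17.4 with both agents. All groups overlapped. No comparison passed (adjusted p = 0.544, 0.0697 and 0.564), although the addition of synta-66 did without CPA replicate 1 (0.813, adjusted p = 0.033, edgeR). The interval for that addition ran from 0.20 to 1.12 on the log2 scale.

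AREG and EREG, neighbours on the same strand, were also set against each other within libraries. Reads at AREG for each read at EREG were 0.188, 0.2, 0.185 and 0.408 in untreated libraries, 0.324, 0.268, 0.123 and 0.481 with CPA, and 1.04, 0.338, 1.03 and 1.43 with both agents. Replicate 2 with both agents lay within the range of the other groups, and the other 3 lay above it. The ratio had exact permutation p = 0.0571 for the addition of synta-66 (adjusted 0.0761), which does not pass.

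HBEGF, the gene of heparin-binding EGF (chr5:140332843-140346603, minus strand), had the fewest reads of the tested members, 62 in all. It had 4, 10, 6 and 14 reads in the untreated libraries, which is 0.833 to 4.1 CPM. With CPA it had 4 reads in replicate 3 and none in the other 3 libraries, where a count of 0 allows up to 3 reads, or 0.648 to 0.774 CPM. With both agents it had 2, 10, 8 and 4 reads, or 0.811 to 2.25 CPM.

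The highest CPA library of HBEGF (0.819 CPM) lay just below the lowest untreated one (0.833) and just above the lowest with both agents (0.811). Neither CPA against untreated (adjusted p = 0.0702) nor the addition of synta-66 (adjusted p = 0.095) passed the edgeR test. Both did without CPA replicate 3, which leaves only CPA libraries at 0 reads (adjusted p = 0.0102 and 0.0132). All 12 counts of HBEGF were even numbers, as were those of SPRED1, with counts of 0 taken as even. The other member rows had from 3 to 9 even counts of 12. Of all counts from 1 to 20 in the files, a range that leaves out 0, 54.5% were even. The cause was not tested, and a count need not be a count of separate fragments, so counting limits cover counting error only.

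The other inhibitors of the pathway had low own counts and no feature that overlaps their exons by at least 30 bases on the other strand. DUSP4, the nuclear phosphatase of ERK and related kinases (chr8:29333064-29350684, minus strand), had 3.33, 3.6, 6.25 and 2.05 CPM in untreated cells. It had 0.774, 2.79, 1.23 and 3.02 CPM with CPA and 2.84, 2.25, 2.46 and 3.48 with both agents. These groups overlapped, and no comparison passed (adjusted p = 0.469, 0.753 and 0.798 in the edgeR test). With 131 reads over 12 libraries, the log2 interval for CPA against untreated ran from -2.08 to 0.21.

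SPRY4 encodes a Sprouty inhibitor (chr5:142310427-142326455, minus strand) and had 3.12, 12.2, 4.69 and 6.45 CPM in untreated cells. It had 5.94, 5.35, 8.39 and 5.83 CPM with CPA and 4.06, 5.63, 4.67 and 6.96 with both agents. Untreated replicate 2 was the highest of all libraries, and the groups overlapped (adjusted p = 0.972, 0.8 and 0.799 in the edgeR test). The interval for CPA against untreated ran from -0.84 to 0.71 on the log2 scale. Another 3 annotated features on the other strand overlap the span of the SPRY4 locus, but none overlaps its exons by at least 30 bases.

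SPRED1, which binds neurofibromin and restrains RAS (chr15:38252836-38357249, plus strand), had 22 reads in all. It had 2 reads in 1 untreated library, 2, 2 and 4 in CPA libraries, and 8 and 4 in libraries with both agents, and 0 in the other 6. It missed the filter of 5 reads in 2 libraries of a group, so no difference could be tested at this depth.

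**Figure D3:**
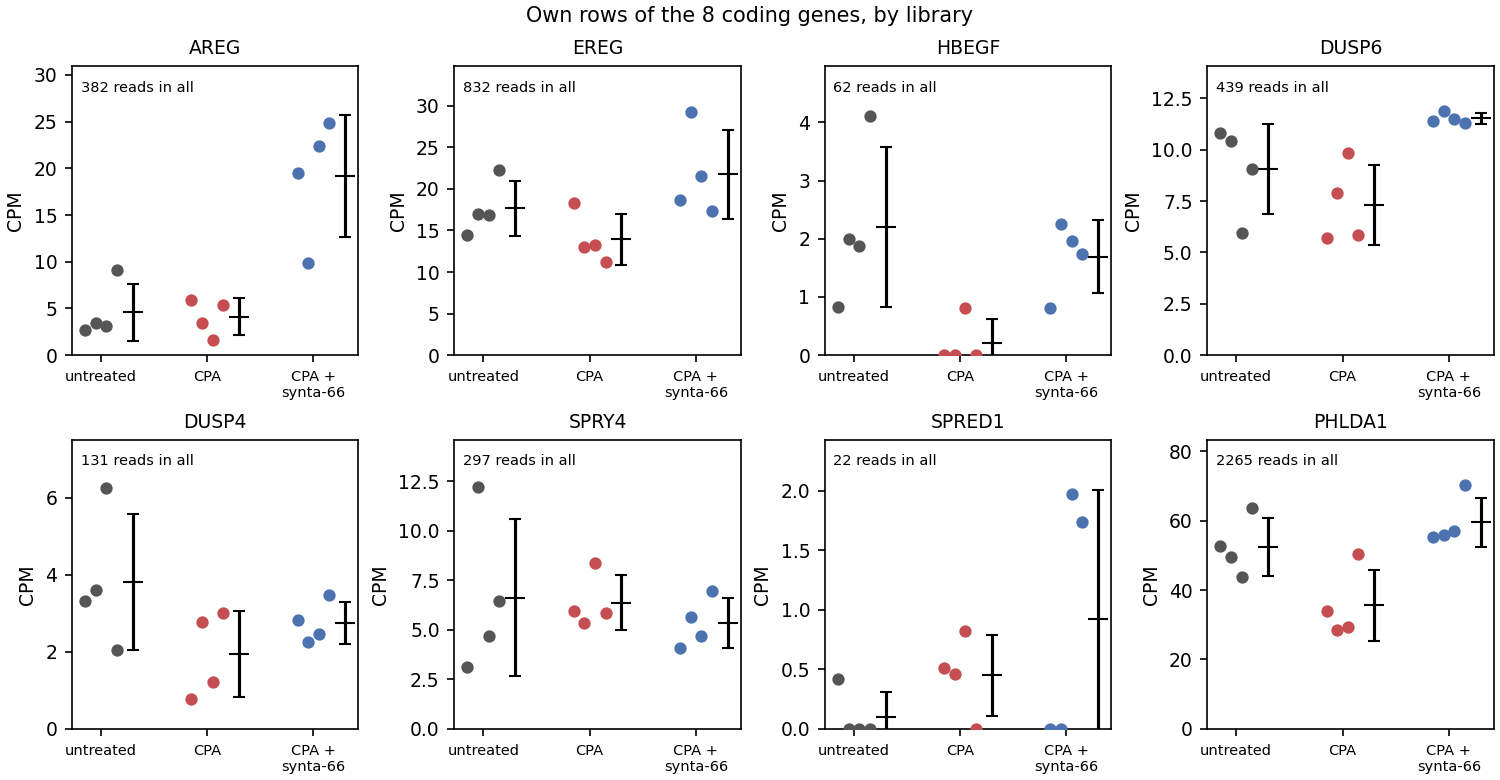
CPM at the own loci of the 8 coding genes (linear axes from 0, a scale for each gene) in the 12 libraries; points are libraries, bars the mean and SD of 4, and the number is the sum of reads. All 4 libraries with synta-66 lie above the others for AREG and DUSP6, and HBEGF had no read in 3 of the 4 CPA libraries.

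Counted over the 9 tested rows, 1 was lower and none higher with CPA than in untreated cells, against 2.85% of all 14911 rows called in that comparison, 1.8% higher and 1.05% lower. When synta-66 was added, 4 were higher (ENSG00000274021, PHLDA1-AS1, PHLDA1 and AREG) and none lower, against 4.76% of all rows called, 1.94% higher and 2.82% lower. Against untreated cells 2 were higher with both agents (PHLDA1-AS1 and AREG) and none lower, against 2.9% called, 1.66% higher and 1.24% lower. These shares are given as background only, since the members were proposed with results of these data known, and PHLDA1 and PHLDA1-AS1 lie over each other. The median log2 fold change of the 9 rows was -0.33, 0.66 and 0.18 in the 3 comparisons, beside -0.007, -0.037 and -0.056 for all rows. Groups did not overlap for 3, 5 and 3 of the 9 rows, beside 10.3%, 12.3% and 9.21% of all rows. By direction these backgrounds were 5.7% higher and 4.65% lower with CPA, 5.46% and 6.84% with synta-66 added, and 4.55% and 4.65% for both agents against untreated. With the rows of the mitochondrial genome left out of the fit, the numbers called were again 1, 4 and 2. The log2 fold changes were then -1.19 and 1.27 for ENSG00000274021, 0.63 and 0.86 for PHLDA1-AS1, 0.73 for PHLDA1 and 2.20 and 2.09 for AREG, all of them called. The first 2 comparisons share the CPA libraries, so opposite signs in them are not separate findings.

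**Figure D4:**
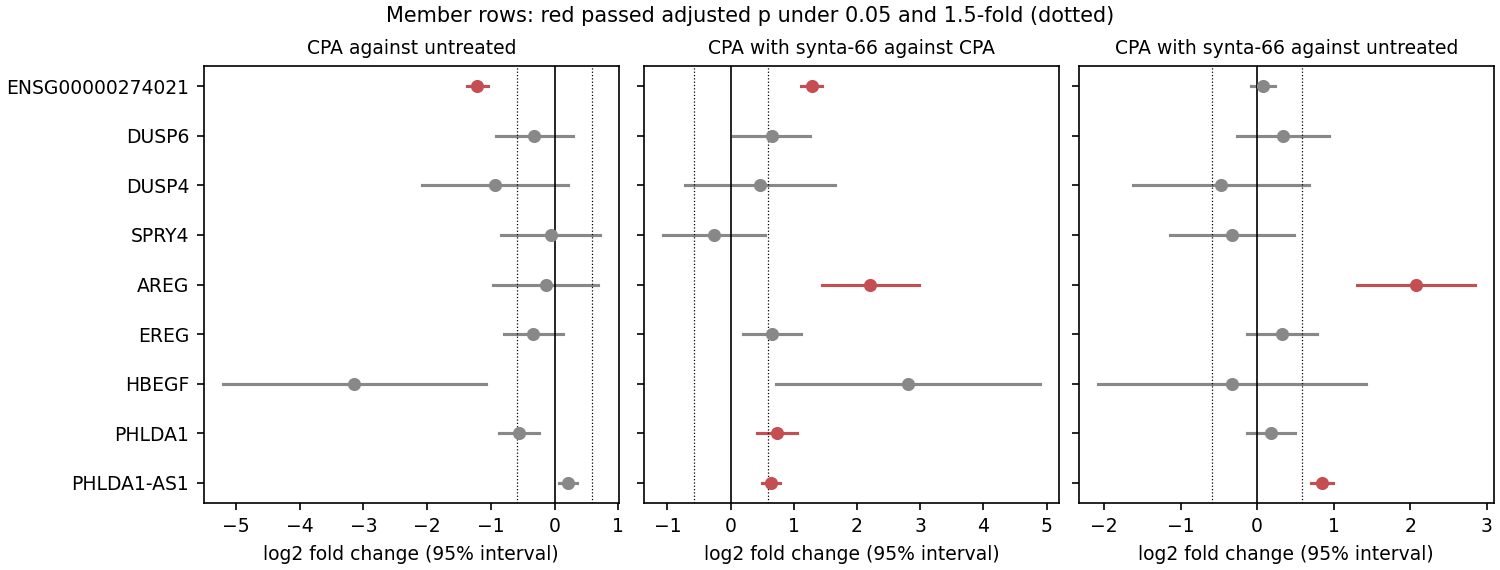
Log2 fold changes (points) with 95% intervals (lines) for the 9 tested rows in the 3 comparisons, from the fit of all 12 libraries; dotted lines mark 1.5-fold and red marks rows that passed it at adjusted p under 0.05. One row is red for CPA against untreated, 4 for the addition of synta-66 and 2 for both agents against untreated, and the widest intervals belong to HBEGF.

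The rest of the pathway was read from 9 lists of 101 genes, at own loci and, where a feature lies opposite the exons of that gene alone, at that feature. Of the EGFR ligands 7 of 11 were tested at their own loci, none was called with CPA and AREG alone with synta-66. TGFA, the gene of transforming growth factor alpha, had 12.6, 9.12 and 9.89 CPM in untreated, CPA and CPA with synta-66 cells (adjusted p = 0.472 and 0.902 for the first 2 comparisons). Of the 4 ERBB receptors 3 were tested at own loci and 2 at opposite features, with none called. The feature opposite EGFR, EGFR-AS1, had 672 ± 42.6, 628 ± 112 and 781 ± 26.3 CPM (SD, n = 4) in that order of groups, a log2 change of 0.31 ± 0.08 with synta-66 (adjusted p = 0.0126) that is under the fold minimum. The own locus of EGFR had 10.5, 8.07 and 11.4 CPM.

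Of the proteases and regulators of ligand release 5 of 7 were tested, and 1 was called, ADAM12, a metalloprotease that can release HB-EGF. It fell from 10.1 ± 5.4 to 2.97 ± 0.902 CPM when synta-66 was added (log2 fold change -1.70 ± 0.42, SE; adjusted p = 0.0059), but not without CPA replicate 2 (-1.264, adjusted p = 0.0948) or without the 3 libraries rich in mitochondrial RNA (adjusted p = 0.0646), nor in the test against 1.5-fold (adjusted p = 0.0866). ADAM17, the main sheddase of amphiregulin, had 43.1, 36.2 and 34.8 CPM at its own locus and was not called. Of 3 opposite features tested in this list none was called. IAH1, on the strand opposite ADAM17, had 469, 536 and 618 CPM in untreated, CPA and CPA with synta-66 cells. Its difference between both agents and untreated, 0.40 ± 0.08 (SE; adjusted p = 0.000326, edgeR), was under the fold minimum.

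Within the RAS to ERK cascade none of 11 genes tested by own counts was called, and of 6 opposite features 1 was, ENSG00000266872 (chr17:27625484-27626438), opposite KSR1, the gene of a scaffold of the RAF and MEK kinases. This feature fell from 22.7 ± 6.24 to 11.9 ± 3.8 CPM with synta-66 over CPA alone (-0.95 ± 0.25, adjusted p = 0.0124). That call ended without CPA replicate 2 (adjusted p = 0.0903) or CPA with synta-66 replicate 2 (0.072), and in the test against 1.5-fold (0.446). ENSG00000261351, opposite the MEK gene MAP2K1, had 93.5, 94.4 and 102 CPM. The rows of the cascade that could be tested thus showed no called difference with CPA.

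Among 6 phosphatases tested at their own loci none was called in any comparison. Only DUSP6 has a feature that lies opposite the exons of that gene alone. DUSP16, a phosphatase of JNK and p38, had 6.58, 9.01 and 5.9 CPM. Of 7 Sprouty and Spred genes 4 were tested, and none was called. Depth limits these results: SPRY2, SPRED2 and SPRED3 averaged 0.708, 1.12 and 0.499 CPM, and the phosphatase DUSP5 0.453 CPM. Changes at such rows could have been missed. Of 9 inhibitors that act on the receptor 4 were tested by own counts and 2 at opposite features, again with none called. LRIG1, which promotes breakdown of EGFR, had 33.1, 24.7 and 36.7 CPM of its own, a log2 change of 0.58 with synta-66 (adjusted p = 0.0252) just under the fold minimum.

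Genes used as readouts of ERK activity did not move one way. Of 8 opposite features 1 rose and 1 fell with CPA, and 2 rose, PHLDA1-AS1 among them, and 1 fell when synta-66 was added. IER3-AS1 (chr6:30742757-30743638), opposite the early response gene IER3, rose with CPA from 1420 ± 86.2 to 2790 ± 144 CPM (SD, n = 4; log2 fold change 0.97, adjusted p = 1.37e-14, edgeR). With both agents it fell to 1050 ± 46.6 CPM (-1.42, adjusted p = 4.65e-20). That level was also below untreated (-0.44, adjusted p = 8.25e-06, edgeR), a difference under the fold minimum. ENSG00000258177 (chr12:96222797-96223973), opposite ELK3, the gene of an ETS-family factor controlled by ERK, fell with CPA from 88.8 ± 14.3 to 53.9 ± 10 CPM (log2 fold change -0.72 ± 0.13, SE; adjusted p = 0.000151). It rose again to 92.4 ± 8.12 CPM with synta-66 (0.78 ± 0.13, adjusted p = 3.94e-05), the same order of groups as at ENSG00000274021. Neither of these 2 steps passed the test against the 1.5-fold minimum (adjusted p = 0.956 and 0.43), and the own counts of ELK3 (11.2, 11.9 and 10.9 CPM) and IER3 (3.45, 4.55 and 3.76 CPM) were not called.

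Besides PHLDA1, CCND1 was the one readout of 11 called at its own locus. This gene of cyclin D1 fell with CPA from 105 ± 48 to 63.8 ± 12.3 CPM (-0.72 ± 0.19, adjusted p = 0.0149, edgeR). DESeq2 did not call it (adjusted p = 0.179), nor did edgeR without untreated replicate 4 (-0.383, adjusted p = 0.226), CPA replicate 3 (0.0964) or CPA replicate 4 (0.0537). With both agents it had 65.2 ± 19.5 CPM, also called lower than untreated (-0.68 ± 0.19, adjusted p = 0.0279). That call too ended in DESeq2 (adjusted p = 0.235) and without any 1 of 4 libraries, most of all untreated replicate 4 (-0.348, adjusted p = 0.31). In the test against 1.5-fold the adjusted p of CCND1 was 1 in both comparisons. LTO1, on the strand opposite CCND1, had 2600 ± 195, 2330 ± 84 and 1950 ± 98.7 CPM (SD, n = 4), and the difference between both agents and untreated, -0.41 ± 0.07 (adjusted p = 4.33e-05), was under the fold minimum.

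In the p38 and JNK arms GADD45A, a stress-induced activator upstream of them, was the 1 gene of 5 called at its own locus. It rose from 3.66 ± 2.04 to 12.9 ± 5.36 CPM when synta-66 was added (1.79 ± 0.44, adjusted p = 0.00558), against 4.28 ± 2.6 CPM in untreated cells (1.59 ± 0.44, adjusted p = 0.0251). The first call ended without CPA with synta-66 replicate 4 (1.48, adjusted p = 0.0542) and the second without that library (1.272, 0.161) or untreated replicate 1 (1.221, 0.126) or 3 (0.0572). Without the 3 libraries rich in mitochondrial RNA neither was called (adjusted p = 0.119 and 0.358), nor was either in the test against 1.5-fold (0.0746 and 0.258).

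**Figure D5:**
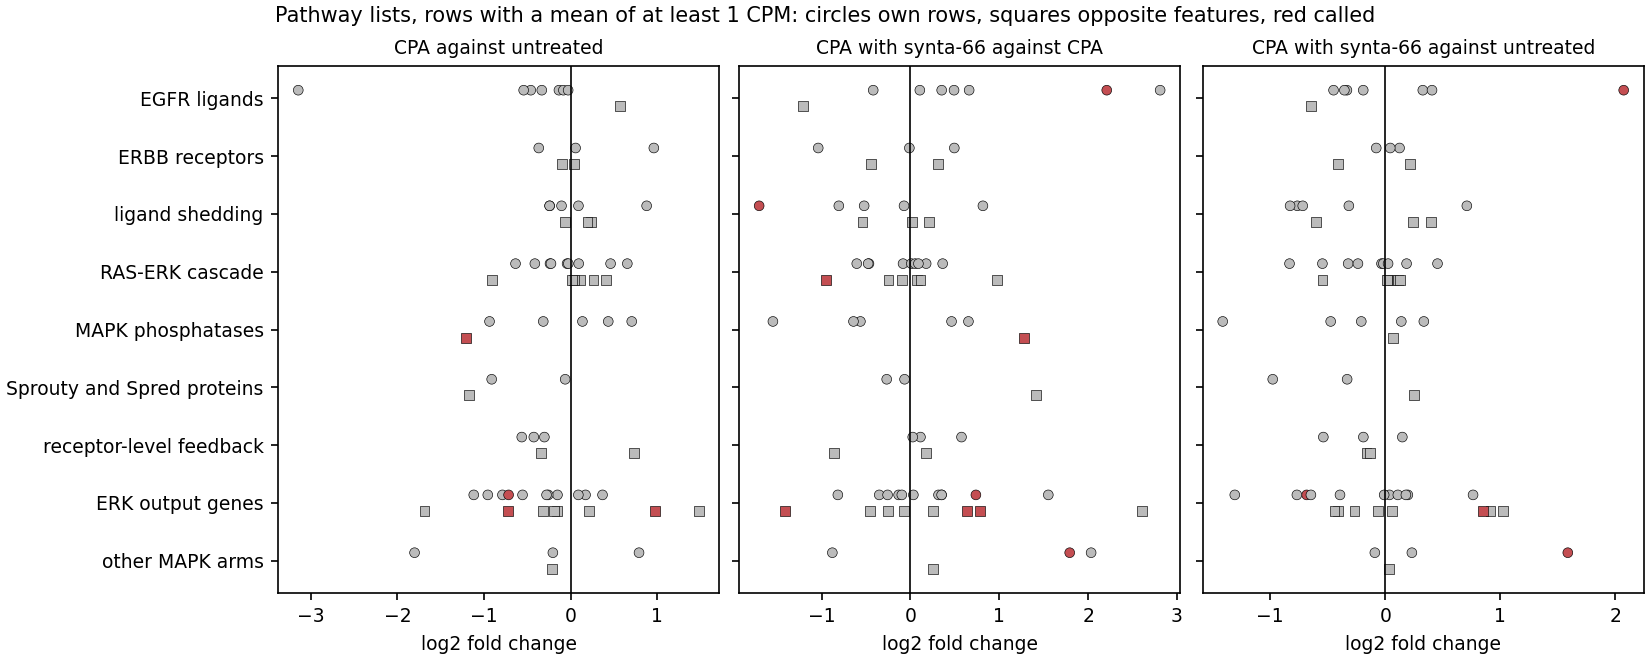
Log2 fold changes of the tested genes of 9 pathway lists that averaged 1 CPM or more, in the 3 comparisons; circles are own loci, squares opposite features and red marks calls. Called rows are few in each list, and in the list of ERK readouts they lie on both sides of 0.

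The rows most like the 2 abundant features were sought by Pearson's r of log2 CPM over the 12 libraries, among 6356 other rows averaging 5 CPM or more. Among the 5 nearest to ENSG00000274021 were CDC42EP3-AS1 (r = 0.97), ABALON (0.969), ENSG00000267257 (0.965) and FGF14 (0.964). CDC42EP3-AS1 lies opposite CDC42EP3 and FGF14 opposite ITGBL1. ENSG00000267257, opposite ALPK2, had 32.2 ± 9.48, 9.9 ± 1.97 and 33.1 ± 6.84 CPM (SD, n = 4) in untreated, CPA and CPA with synta-66 cells. ABALON, opposite BCL2L1, had 784 ± 45, 548 ± 48.9 and 875 ± 50.2 CPM. Both were lowest with CPA, as was the feature opposite DUSP6.

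The 5 rows nearest to PHLDA1-AS1 were DERL2 (r = 0.976), DOP1A (0.975), ENSG00000279086 (0.968), ENSG00000264324 (0.96) and ENSG00000270075 (0.958). DERL2 lies opposite MIS12, DOP1A opposite PGM3, ENSG00000279086 opposite TES and ENSG00000270075 opposite ITPRIP. Reads of each row cannot be told apart from reads of the gene opposite it. DERL2 had 80.2 ± 5.9, 106 ± 7.47 and 241 ± 15.8 CPM, and ENSG00000264324, opposite MTHFD2, 874 ± 56.8, 905 ± 51.2 and 1390 ± 74.4 CPM (SD, n = 4). These rows, too, were highest with both agents. The 12 libraries are the same for all rows and fall into 3 groups, so these r values describe group order and say nothing of shared control. No row is among the 5 nearest to both features.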

How the data were processed

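RNA-seq counts were analysed from 12 HSC-3 libraries, 4 for each of 3 groups. The deposited values are raw read counts per gene, not normalized by the authors, per the labels' protocols: STAR 2.5.2a, Ensembl 84 on GRCh38, HTSeq 0.6.1p1 taken as stranded, trimming by Trimmomatic (0.32 in the protocols, 0.36 in the submitters' processing notes). No kit for the libraries is named there. Reads in no feature were 90.5% to 96.3% of uniquely aligned reads; these and the other unassigned classes entered neither library sizes nor tests.

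edgeR 4.0.16 in R 4.3.3 was used with TMM scaling, a filter that kept rows reaching 5 reads in 2 or more libraries within any 1 group, and 1 quasi-likelihood fit of all libraries with group as the only term. CPM values use TMM-scaled sizes. Coordinates, exon lengths and overlaps are from GENCODE 44, which lacks 4117 of the gene rows. Opposite features of list genes overlap exons of that coding gene alone by at least 30 bases; the one with most reads was taken.

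Members, lists and rules were chosen with earlier results of these data known. Named besides the members are up to 4 called genes (mean of 1 CPM or more) for each list and comparison, and the 5 rows nearest to each abundant feature (log2 CPM plus 0.5). TGFA, EGFR with EGFR-AS1, ADAM17 with IAH1, the feature opposite MAP2K1, DUSP16, LRIG1 and LTO1 were added after their values were seen. A few rows that these rules name are not reported here. The alternatives were DESeq2 1.42.0, 3 scalings, 2 filters, other fold rules, fits of 2 groups, a replicate block, an overlap of at least 100 bases and libraries left out.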

Additional observations from a re-analysis of the deposited data

Results flagged for a closer look

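Among the 30 groups of 4 libraries (10 rows in 3 groups), 5 had a library set apart by the ratio of its gap to the whole range, which chance exceeds in about 1 of 20 groups. In 2 of the 5 the other 3 libraries had 0 reads, so that ratio is at its maximum whatever the value. PHLDA1 stood at 70.1 CPM in CPA with synta-66 replicate 4, above the other 3. PHLDA1-AS1 was lowest in CPA replicate 2, at 949 CPM. AREG reached 9.08 CPM in untreated replicate 4, and without that library its rise with both agents over untreated cells was 2.61 on the log2 scale. These 2 were HBEGF, with its only CPA reads in replicate 3 (4 reads, 0.819 CPM), and SPRED1, with its only untreated reads in replicate 1 (2 reads, 0.416 CPM). The SPRED1 count is below the 3 reads that a count of 0 allows, so that library cannot be told apart from the others.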

How the results depend on the processing

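Under DESeq2, the scalings, the filters, 2-group fits and each library left out, ENSG00000274021 kept its calls and directions in both comparisons in which it was called, PHLDA1-AS1 in both of its own, and AREG in both of its own. Log2 fold changes without 1 library were -1.267 to -1.153 and 1.226 to 1.333 for ENSG00000274021, 0.594 to 0.7 and 0.807 to 0.913 for PHLDA1-AS1, and 1.934 to 2.442 and 1.878 to 2.61 for AREG. The overlap of at least 100 bases left both member features as they were. A test against 1.5-fold ended the PHLDA1-AS1 call for the addition of synta-66 (0.636, adjusted p = 0.773), called 2 member rows there in place of 4, and called 82 higher and 18 lower rows with CPA, 53 and 104 with synta-66 added, and 79 and 23 for both agents against untreated. With no minimum fold 261 rows were lower with CPA, 515 higher with synta-66 added, and 2 member rows were called with CPA. That number was also 2 without the 3 libraries with the most non-unique alignments, and 1 to 2 without 1 library. The cause was not tested, except that a fold rule by its construction changes how many rows pass.

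Same-numbered samples did not deviate together (r from -0.067 to 0.134 over 12 pairs, and from -0.144 to 0.182 for other pairs), and 3 of 12 libraries correlated best with their own number. With the number as a replicate block, 283 rows were higher and 158 lower with CPA, 292 and 431 with synta-66 added and 236 and 182 for both agents against untreated, and 1, 4 and 2 member rows were called. Depth limits HBEGF, DUSP4 and SPRED1 most, with 62, 131 and 22 reads in all. Leaving 1 library out of the ratios and the r values was added after seeing the data: the log2 ratio of PHLDA1-AS1 to ENSG00000274021 for CPA against untreated lay between 1.383 and 1.461, and the AREG to EREG ratio for that comparison, which did not pass, between -0.068 and 0.588.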
